A study of Mus musculus with 12 samples.

Results

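The 7 transcription factors Nr5a1, Wt1, Gata4, Zfpm2, Lhx9, Emx2 and Tcf21 mark the genital ridge before it becomes a testis or an ovary, and they were followed here in gonadal somatic cells that lack the histone demethylase Kdm3a. They were chosen by name, through the accession of each array probe, and are 7 of the 18749 genes named on the array. All 7 were measured, by 10 probes, of which 9 gave a signal well above background in all 12 embryos. The exception was the second probe of Gata4, which was well above background in 0 of 12 embryos and was not used.

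The series held 12 one-colour microarrays, 3 single embryos in each of 4 groups, all at E11.5. Control females and control males were heterozygous for the mutant allele of Jmjd1a, the older name of Kdm3a, and mutant females and mutant males were homozygous for it. All 12 embryos also carried the Nr5a1/CD271 transgene, which puts the surface protein CD271 on cells with Nr5a1 regulatory activity, and the cells were taken from trypsinized gonads and mesonephroi with magnetic beads against CD271. The controls thus carried 1 mutant allele, no wild-type embryo was compared, and the level of Nr5a1 was not independent of the sort. The other factors were read only in cells selected by Nr5a1 regulatory activity, so their levels were no independent check of identity either. The share of such cells in the gonad before the sort was not measured, so a change in it could not be seen here. The question put to these genes was whether the identity factors of the genital ridge were kept in the sorted cells of the mutants.

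The early gonad forms as a thickening of the coelomic epithelium over the mesonephros, and loss of most of these factors in the mouse stops or shrinks that thickening. Nr5a1 is the orphan nuclear receptor of steroid-producing and gonadal cells. Wt1 is a zinc-finger factor of the ridge and the kidney, and Gata4 acts with its cofactor Zfpm2 in the ridge and in testis determination. Lhx9 and Emx2 are homeodomain factors of the coelomic epithelium, and Tcf21 is a basic helix-loop-helix factor of mesenchyme that represses Nr5a1 in the mouse gonad. Kdm3a removes methyl groups from lysine 9 of histone H3 and is needed in the mouse for the timely expression of the testis gene Sry.

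The promoters of 3 members, Lhx9, Emx2 and Tcf21, were at hand, and those of the other members were not. The 3 promoters are shown for reference, and no expression result below rests on them. Each is the RefSeq sequence of 300 bases, 250 before and 50 after the gene's start, in build GRCm38.p6, read 5′ to 3′ along the gene, and capitals mark TAAT, the core letters bound by homeodomain proteins, on either strand (ATTA is the same core on the other strand).
Lhx9, chr1:138842395-138842694, minus strand: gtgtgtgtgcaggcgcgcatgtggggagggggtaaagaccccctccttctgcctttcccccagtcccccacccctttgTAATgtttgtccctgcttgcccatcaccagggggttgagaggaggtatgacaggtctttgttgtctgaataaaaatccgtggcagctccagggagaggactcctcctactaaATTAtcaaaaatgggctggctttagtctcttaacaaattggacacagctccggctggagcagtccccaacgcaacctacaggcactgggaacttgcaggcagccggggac
Emx2, chr19:59458440-59458739, plus strand: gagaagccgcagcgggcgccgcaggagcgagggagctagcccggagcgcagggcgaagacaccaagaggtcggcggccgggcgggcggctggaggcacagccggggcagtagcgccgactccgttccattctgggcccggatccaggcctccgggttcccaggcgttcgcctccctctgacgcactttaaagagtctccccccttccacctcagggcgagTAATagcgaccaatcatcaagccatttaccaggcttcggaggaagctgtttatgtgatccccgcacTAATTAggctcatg
Tcf21, chr10:22820094-22820393, minus strand: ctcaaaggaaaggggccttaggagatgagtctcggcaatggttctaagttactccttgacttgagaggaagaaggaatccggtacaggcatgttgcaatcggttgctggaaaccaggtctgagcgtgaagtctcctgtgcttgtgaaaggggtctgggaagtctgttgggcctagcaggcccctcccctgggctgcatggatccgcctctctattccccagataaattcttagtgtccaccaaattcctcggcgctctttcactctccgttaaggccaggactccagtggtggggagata

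The Lhx9 window held 2 matches to TAAT on the 2 strands, the Emx2 window held 3, of which 2 overlap in 1 TAATTA, and the Tcf21 window held 0. A match to TAAT was present in 58% of the 32851 mouse promoters of the same length. GATA, the core of the sites of GATA factors, was matched 1 time in the Lhx9 window, where it overlaps the second TAAT match, 2 times in the Tcf21 window and 0 times in the Emx2 window, against 57.9% of all promoters with a match. AGGTCA, the half-site of nuclear receptors, was in none of the 3 windows and in 16.3% of all promoters. CANNTG, the E-box read by basic helix-loop-helix factors, was matched 1 time in the Lhx9 window and in neither other window, against 72.3% of all promoters. TATAAA, the TATA box, was in none of the 3 and in 13.6% of all promoters. These are matches of letters on both strands, and binding to them was not measured.

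The targeted gene was checked first. The Kdm3a probe read lower in the mutants by 1.95 ± 0.14 on the log2 scale (SE, limma, adjusted p = 9e-05) in males and by 2.27 ± 0.14 (adjusted p = 4.16e-05) in females. The 6 controls read from 2.70 to 3.03 and the 6 mutants from 0.43 to 1.04, without overlap. A second, dimmer Kdm3a probe was well above background in the 6 controls and in 0 of the 6 mutants. Which part of the gene the mutant allele lacks is not stated in the labels, so the signal that the first probe kept in mutants cannot be assigned to intact or altered transcript. Per array, the signal at the 75th percentile ran from 142.9 to 299.5, and the share of spots well above background from 58.0% to 65.2%. There were 3 slides: mutant male 1 shared slide 1 with the 3 control males, control females 1 and 2 shared slide 2 with mutant males 2 and 3, and control female 3 shared slide 3 with the 3 mutant females. Control female 3 stood apart from its group, with a limma array weight of 0.205 against 0.405 to 2.94 for the other arrays. Results on mutant females, the averaged effect and the sex difference in controls that turn on it are given with and without it.

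Levels are given as log2 of the processed signal over the 75th percentile of the same array, so that 0 is the level of that percentile and a difference of 1 is a 2-fold difference. Different probes bind with different strength, so levels were compared between embryos and never between genes. Sums over the genes of a list, given below, are set mostly by the brightest probes in them. In bulk RNA, fewer cells of a type and less RNA per cell cannot be told apart.

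Nr5a1 had the widest spread among embryos of the 7. It read -1.63, -1.23 and -0.44 in control females 1 to 3 and -1.11, -0.26 and -1.0 in mutant females 1 to 3. In control males 1 to 3 it read -1.40, -1.23 and -1.01, and in mutant males 1 to 3 it read -0.80, -1.56 and -0.94. Control female 3 and mutant female 2 were the highest, control female 1 and mutant male 2 the lowest, and the groups overlapped in every comparison. The mean level was -1.10 ± 0.61 (SD, n = 3) in control females, -0.79 ± 0.46 in mutant females, -1.22 ± 0.19 in control males and -1.10 ± 0.40 in mutant males. The pooled SD within groups was 0.441, and 88.0% of all tested features had a smaller one.

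Wt1 read 4.43, 4.34 and 5.01 in control females, 4.70, 5.15 and 4.76 in mutant females, 4.38, 4.25 and 4.41 in control males, with 4.73, 4.24 and 4.65 in mutant males. The same control female 3 and mutant female 2 were highest, mutant male 2 was lowest, and the ranges overlapped within each sex. Group means ran from 4.35 ± 0.09 (SD, n = 3) in control males through 4.54 ± 0.26 in mutant males and 4.59 ± 0.36 in control females to 4.87 ± 0.25 in mutant females, with no step between neighbours past the spread.

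Gata4 read -2.29, -2.30 and -1.76 in control females, -2.12, -1.53 and -2.32 in mutant females, -2.02, -2.23 and -2.05 in control males, with -1.69, -2.34 and -1.82 in mutant males. Mutant female 2 was again the highest, and mutant male 2 was the lowest. Its group means ran from -2.12 ± 0.31 (SD, n = 3) in control females through -2.10 ± 0.11 in control males and -1.99 ± 0.41 in mutant females to -1.95 ± 0.34 in mutant males, closer together than the embryos within a group. Zfpm2, the cofactor that binds Gata4, read 1.44, 1.42 and 1.76 in control females, 1.39, 1.85 and 1.53 in mutant females, 2.15, 1.96 and 1.65 in control males, with 1.73, 1.67 and 1.77 in mutant males. Its highest embryos were control males 1 and 2, neither of which was among the 4 highest for Gata4. The group means of Zfpm2 were 1.54 ± 0.20 (SD, n = 3) in control females, 1.59 ± 0.24 in mutant females, 1.92 ± 0.25 in control males and 1.72 ± 0.05 in mutant males.

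Lhx9 read 3.74, 3.78 and 4.31 in control females, 3.91, 4.51 and 4.04 in mutant females, 3.99, 3.45 and 3.64 in control males, with 4.22, 3.83 and 4.16 in mutant males. Emx2 read 0.67, 0.76 and 1.35 in control females, 1.06, 1.62 and 1.11 in mutant females, 0.83, 0.54 and 0.70 in control males, with 1.16, 0.82 and 1.18 in mutant males. By the brighter probe of each, both homeodomain genes had the same highest embryo, mutant female 2, the same second, control female 3, and the same lowest, control male 2. For both, the order of the group means was control males, control females, mutant males and mutant females, from 3.69 ± 0.27 (SD, n = 3) to 4.15 ± 0.32 for Lhx9 and from 0.69 ± 0.14 to 1.26 ± 0.31 for Emx2. For both, 2 of 3 mutant males read above all 3 control males, and mutant male 2 read inside the control range.

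Tcf21 had the smallest spread. It read 2.71, 2.62 and 2.62 in control females, 2.75, 2.80 and 2.77 in mutant females, 3.16, 3.11 and 2.97 in control males, with 3.10, 2.93 and 3.04 in mutant males. All 6 males read above all 6 females. The group means were 2.65 ± 0.05 (SD, n = 3) in control females, 2.77 ± 0.02 in mutant females, 3.08 ± 0.10 in control males and 3.02 ± 0.08 in mutant males. The pooled SD within groups was 0.0699, and 1.64% of all tested features had a smaller one, where the median feature had 0.236.

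**Figure D1:**
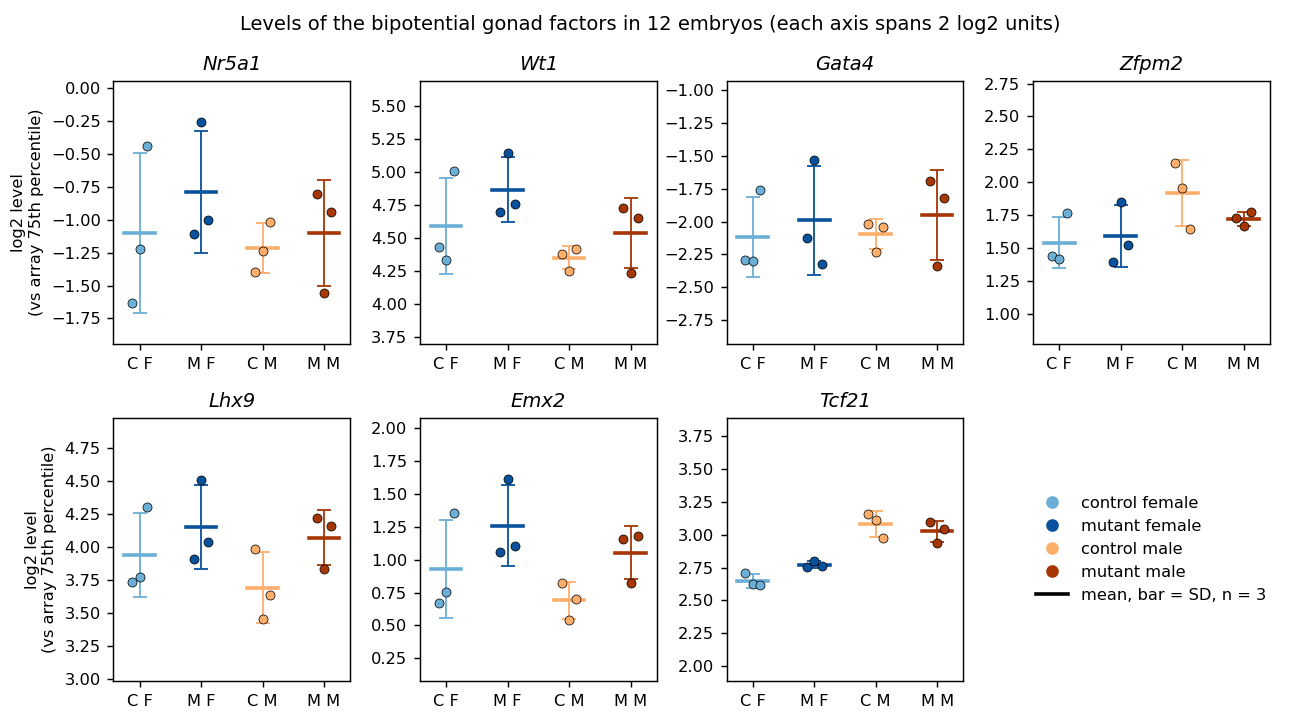
Log2 level of each factor relative to the array's 75th percentile (vertical axis, spanning the same width in every panel) in control females (C F), mutant females (M F), control males (C M) and mutant males (M M), with embryos 1 to 3 of each group from left to right, the mean as a line and the SD as a bar (n = 3). Mutants and controls of each sex overlap for Nr5a1, Wt1, Gata4, Zfpm2, Lhx9 and Emx2, while for Tcf21 all 6 males lie above all 6 females.

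The first comparison asked whether loss of Kdm3a changed these factors within each sex. None of the 7 passed the test in males or in females. In males the changes ran from -0.19 ± 0.16 (SE) for Zfpm2 to 0.38 ± 0.22 for Lhx9, with Emx2 at 0.36 ± 0.21, Wt1 at 0.19 ± 0.20, Gata4 at 0.15 ± 0.24, Nr5a1 at 0.11 ± 0.32 and Tcf21 at -0.06 ± 0.10. Adjusted p-values in males were between 0.445 and 0.847 (limma, Benjamini-Hochberg over 19180 features). The count was 0 of 7 where 0.469% of all features passed, and 0 of 7 had an unadjusted p under 0.05, where 11.9% of all features did. In females all 7 changes were above 0, from 0.05 ± 0.16 for Zfpm2 to 0.33 ± 0.21 for Emx2, with Nr5a1 at 0.31 ± 0.32, Wt1 at 0.28 ± 0.20, Lhx9 at 0.21 ± 0.22, Gata4 at 0.13 ± 0.24 and Tcf21 at 0.12 ± 0.10. Adjusted p-values in females were between 0.503 and 0.881, the count was 0 of 7 where 0.355% of all features passed, and 0 of 7 had an unadjusted p under 0.05, where 10.4% of all features did. Tcf21 was the 1 member whose mutant and control females did not overlap, as was the case for 12.7% of all features, and in males no member was free of overlap, against 20.3% of all features.

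Averaged over both sexes the changes were 0.21 ± 0.23 (SE) for Nr5a1, 0.23 ± 0.14 for Wt1, 0.14 ± 0.17 for Gata4, -0.07 ± 0.12 for Zfpm2, 0.30 ± 0.15 for Lhx9, 0.35 ± 0.15 for Emx2 and 0.03 ± 0.07 for Tcf21. Again 0 of 7 passed (limma, adjusted p from 0.199 to 0.763), where 1.12% of all features did, and Emx2 was the 1 member with an unadjusted p under 0.05 (95% interval of its change 0.02 to 0.67), against 23.6% of all features. The median change of the members was 0.15 in males, 0.21 in females and 0.21 averaged, beside -0.05 for all features in each of the 3. A change above 0 was found for 5 of 7 members in males, 7 of 7 in females and 6 of 7 averaged, where 44.6%, 43.3% and 43.4% of all features were above 0, and the members are not independent of each other because most of them moved together among embryos.

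The 95% intervals give the sizes of change that the data did not exclude. In males, the 95% intervals of the 7 members reached at most a 1.51-fold lower level (Nr5a1) and a 1.81-fold higher one (Lhx9). In females the limits were 1.32-fold lower and 2.02-fold higher, both for Nr5a1. Averaged over the sexes they were 1.26-fold lower for Zfpm2 and 1.64-fold higher for Nr5a1. For Tcf21, the interval of the averaged change was -0.12 to 0.19, the narrowest of the 7.

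**Figure D2:**
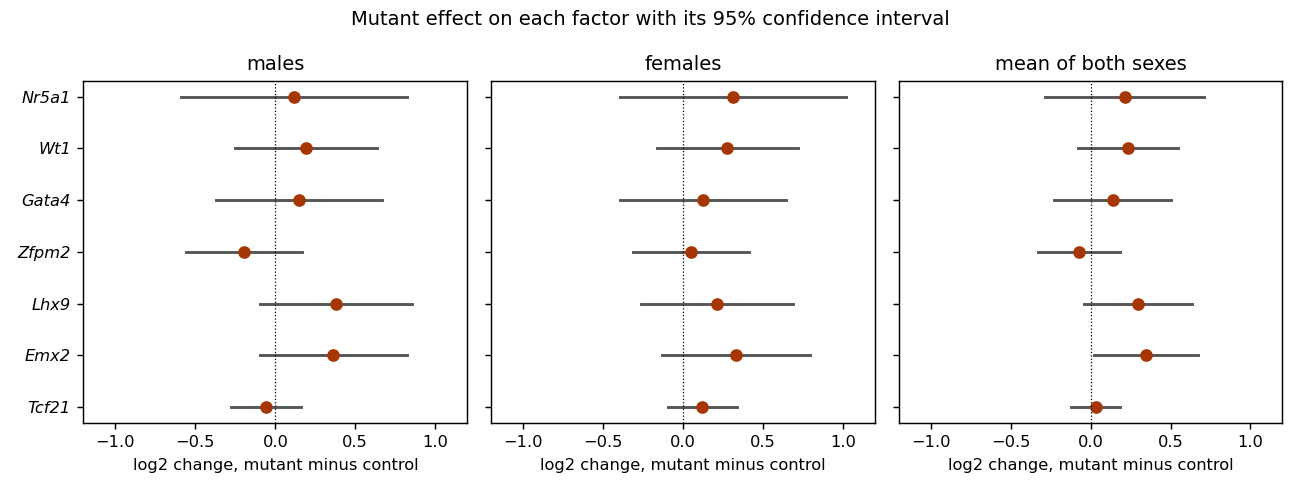
Log2 change of each factor, mutant minus control (horizontal axis), in males, in females and as the mean of both sexes, with the point at the estimate and the bar at its 95% confidence interval from limma (12 arrays). The interval covers 0 in every case except the mean change of Emx2, whose lower limit is 0.02.

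Control female 3 was among the 2 highest embryos for Nr5a1, Wt1, Lhx9 and Emx2, so the effect in females depended on it. Without it, the change in females was 0.64 ± 0.29 (SE, adjusted p = 0.153) for Nr5a1, 0.49 ± 0.18 (adjusted p = 0.101) for Wt1, 0.40 ± 0.21 (adjusted p = 0.205) for Lhx9 and 0.54 ± 0.19 (adjusted p = 0.0927) for Emx2, and 0.693% of all features passed. The averaged change without it was 0.45 ± 0.13 for Emx2, which then passed the test (limma, adjusted p = 0.0344), but 25.2% of all features also passed there. Lhx9 at 0.39 ± 0.14 (adjusted p = 0.0691), Wt1 at 0.34 ± 0.12 (adjusted p = 0.061) and Nr5a1 at 0.38 ± 0.20 (adjusted p = 0.162) did not pass. With each array weighted by its quality, 3 of 7 members passed in the averaged effect, Emx2 at 0.44 (adjusted p = 0.00765), Wt1 at 0.35 (adjusted p = 0.0127) and Lhx9 at 0.37 (adjusted p = 0.0254), beside 10009 of 19180 features.

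Slide and group were largely joined, and only slides 1 and 3 held both genotypes of 1 sex. On slide 1, mutant male 1 minus the mean of the 3 control males was 0.41 for Nr5a1, 0.38 for Wt1, 0.41 for Gata4, -0.19 for Zfpm2, 0.53 for Lhx9, 0.47 for Emx2 and 0.01 for Tcf21. On slide 3, the mean of the 3 mutant females minus control female 3 was -0.35 for Nr5a1, -0.14 for Wt1, -0.23 for Gata4, -0.18 for Zfpm2, -0.15 for Lhx9, -0.09 for Emx2 and 0.15 for Tcf21. The signs on slide 3 were thus below 0 for 6 of 7 members, opposite to the fit over all slides, and that slide rests on the 1 control that stood apart. Each of these slide values rests on 1 embryo of 1 group, so they carry no test. A fit with the slide as a block takes its mutant effects from these same 2 contrasts, since slide 2 held no pair of genotypes within a sex, and its averaged effect was 0.03 for Nr5a1, 0.12 for Wt1, 0.09 for Gata4, -0.18 for Zfpm2, 0.19 for Lhx9, 0.19 for Emx2 and 0.08 for Tcf21.

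The second probes of Lhx9 and Emx2 read smaller differences than the first. In the averaged effect the second Lhx9 probe gave 0.10 ± 0.11 (SE, limma, adjusted p = 0.544) and the second Emx2 probe gave 0.08 ± 0.11 (adjusted p = 0.641). In females they gave 0.00 ± 0.16 and -0.04 ± 0.16. The 2 Lhx9 probes carry different RefSeq accessions and the 2 Emx2 probes carry the same one, so the value near 0.3 for these genes belongs to the brighter probe of each.

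The second comparison asked whether the factors differed between male and female embryos. None passed in controls (0 of 7, where 0.177% of all features passed) or in mutants (0 of 7, where 0.130% passed). In controls 2 of 7 had an unadjusted p under 0.05, against 10.8% of all features, and in mutants 1 of 7 did, against 11.5%. Tcf21 read higher in males than in females among controls by 0.43 ± 0.10 (SE, limma, adjusted p = 0.172), a ratio of 1.35, and among mutants by 0.25 ± 0.10 (adjusted p = 0.399), a ratio of 1.19. The sexes did not overlap for Tcf21 in either genotype, which held for 15.9% of all features in controls and 22.8% in mutants. Averaged over both genotypes, a comparison added after the values were seen, Tcf21 was higher in males by 0.34 ± 0.07 (SE, limma, 95% interval 0.19 to 0.50, adjusted p = 0.0626), which also missed the threshold, where 0.584% of all features passed. With arrays weighted by quality, the difference in controls passed at 0.46 (adjusted p = 0.0173). No slide held males and females of 1 genotype, and with the slide as a block the difference of Tcf21 was 0.31 in controls and 0.17 in mutants, values that join slide 2 to the contrasts of 1 embryo on slides 1 and 3. On slide 2, the mean of the 2 mutant males minus that of the 2 control females was 0.32 for Tcf21, where sex and genotype cannot be told apart.

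Zfpm2 was the other member with an unadjusted p under 0.05 in controls, higher in males by 0.38 ± 0.16 (SE, limma, adjusted p = 0.463), and in mutants the difference was 0.13 ± 0.16 (adjusted p = 0.719). The ranges of control males and control females overlapped for it. Nr5a1, Wt1, Lhx9 and Emx2 read lower in males in both genotypes. The differences ran from -0.25 to -0.12 in controls and from -0.33 to -0.08 in mutants, with adjusted p-values from 0.506 to 0.878 (limma). Those in controls turned on control female 3. Without it they were 0.21 for Nr5a1, -0.03 for Wt1, -0.06 for Lhx9 and -0.025 for Emx2. With the slide as a block the sign of all 4 turned in mutants, to differences from 0.20 to 0.53, which rest on the same contrasts. The second probes of Lhx9 and Emx2 also read higher in mutant males than in mutant females, by 0.18 ± 0.16 and 0.20 ± 0.16 (SE, adjusted p = 0.6 and 0.572), and in controls they differed by -0.02 and -0.04. Gata4 differed by 0.02 ± 0.24 in controls and 0.04 ± 0.24 in mutants. The difference of the mutant effects between the sexes was tested directly and lay between -0.24 ± 0.23 for Zfpm2 and 0.16 ± 0.31 for Lhx9, with 0 of 7 members and 0 of 19180 features past the threshold in limma. At an unadjusted p under 0.05 there were 0 of 7 members and 701 features, or 3.65%. The widest interval, for Nr5a1, ran from -1.19 to 0.80, so a difference between the sexes of up to that size was not excluded.

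Differences between embryos of the same group were shared by 5 of the 7 members, and mostly by Zfpm2. Nr5a1, Wt1, Gata4, Lhx9 and Emx2 were all above their group means in control female 3, mutant female 2, mutant male 1 and mutant male 3. All 5 were below their group means in control females 1 and 2, mutant females 1 and 3, control male 2 and mutant male 2. In control males 1 and 3 the 5 genes were split, with 4 above and 1 below. In the 10 embryos where the 5 agreed, Zfpm2 deviated to the same side in 9, the exception being control male 2, and Tcf21 in 7. Around the group means Zfpm2 correlated with Lhx9 at 0.806, with Emx2 at 0.754 and with Wt1 at 0.639, while over all 12 embryos these correlations were 0.188, 0.095 and 0.016. In control female 3 the deviations were 0.66 for Nr5a1, 0.42 for Wt1, 0.35 for Gata4, 0.37 for Lhx9 and 0.43 for Emx2, Zfpm2 deviated by 0.22 and Tcf21 by -0.03. In mutant male 2 they were -0.46, -0.30, -0.39, -0.24 and -0.23 for the same 5 genes in the same order, and -0.09 for Tcf21.

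Erythroid genes moved among the same embryos. Of 6 listed erythroid genes 4 were measured, and their summed level is given in multiples of the array's 75th percentile. The sum was 722, 85.6 and 47.8 for control females 1 to 3, and for mutant females 1 to 3 it was 410, 19.5 and 399. Control males 1 to 3 had sums of 28.7, 214 and 58.4, and mutant males 1 to 3 had sums of 23.9, 289 and 118. In each of the 4 groups the embryo with the lowest sum was above its group mean for at least 4 of the 5 genes, and the embryo with the highest sum was below it for all 5. Summed macrophage genes (4 of 6 measured) ran the same way in females, lowest in control female 3 at 0.831 and mutant female 2 at 0.407, and highest in mutant male 2 at 2.51 among mutant males. Summed endothelial genes (6 of 6 measured) and neural genes (5 of 6 measured) were also lowest among females of their group in control female 3 (5.17 and 0.927) and mutant female 2 (4.08 and 0.796), and highest among males of their group in control male 2 (8.03 and 1.26) and mutant male 2 (8.45 and 1.65). The part of these cells in the levels of the 5 factors was not tested.

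**Figure D3:**
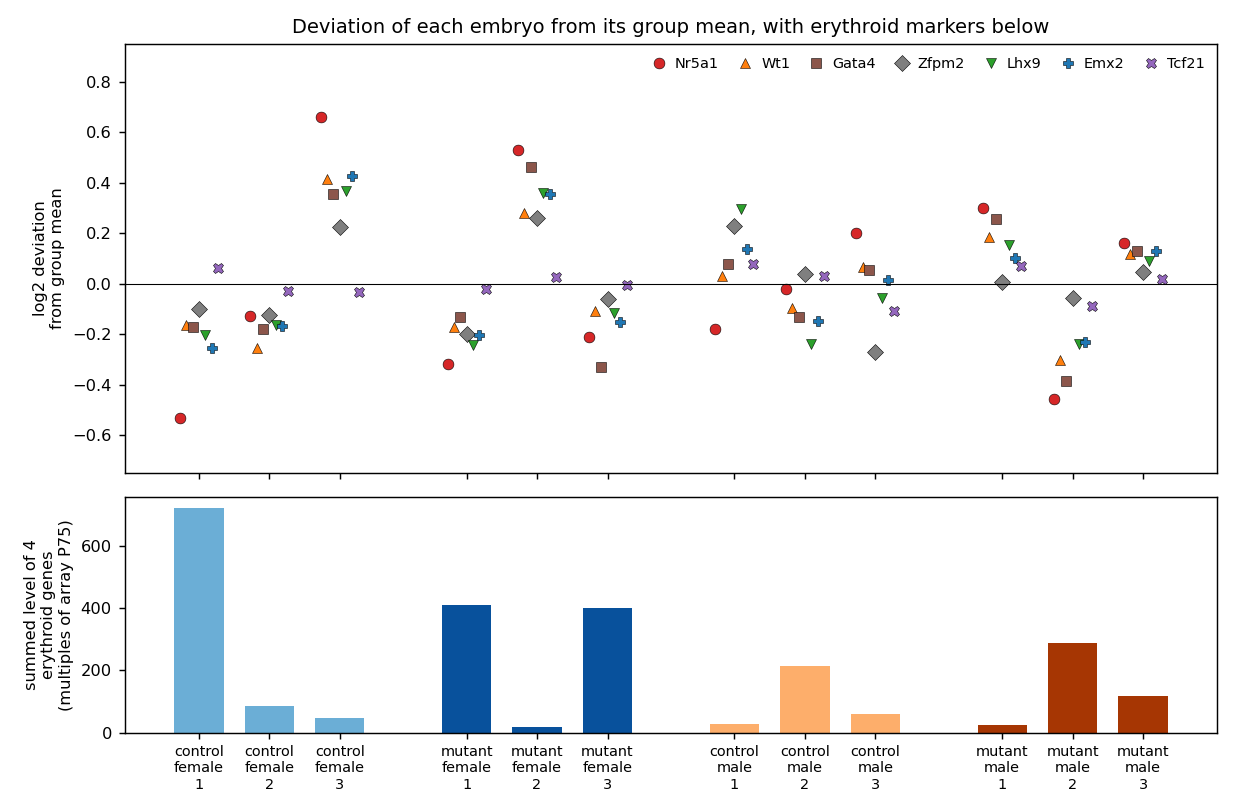
Upper panel, deviation of each factor from the mean of its group in each of the 12 embryos (log2 units, points), and lower panel, summed level of 4 erythroid genes in the same embryos in multiples of the array's 75th percentile (bars from 0). Nr5a1, Wt1, Gata4, Lhx9 and Emx2 lie above 0 together in control female 3, mutant female 2 and mutant males 1 and 3, and below 0 together in mutant male 2, while Tcf21 stays within 0.11 of 0.

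Of the 21 pairs of members, 11 had an adjusted permutation p under 0.05 for Pearson's r over the 12 embryos, and 7 had one for Spearman's rho. Lhx9 and Emx2 were closest, with r = 0.962 and rho = 0.979, each with a permutation p of 1e-05, the smallest that 100000 resamples can give (adjusted p = 0.00021 for both). Without the 2 embryos farthest from the median of Lhx9 the correlation was 0.929, and it was 0.959 around the group means and 0.965 around the slide means. These values belong to the brighter probe of each gene, and correlations of the second probes were not computed. The second Emx2 probe was highest in mutant male 1 (-0.11) and lowest in control female 2 (-0.76). The second Lhx9 probe was highest in mutant female 2 (0.57) and lowest in control male 2 (0.05). Of 19120 features, none was closer to Lhx9 than Emx2, while 20 were closer to Emx2 than Lhx9 was. Between Wt1 and Emx2, 152 features were closer to Wt1 than Emx2 was, and 76 closer to Emx2 than Wt1 was. Between Nr5a1 and Wt1, 307 were closer to Nr5a1 than Wt1 was, and 1091 closer to Wt1 than Nr5a1 was. After Lhx9 and Emx2, the next pair by r was Wt1 and Emx2, with r = 0.947 and rho = 0.804 (permutation p = 2e-05 and 0.0025, adjusted 0.00021 and 0.013). Its r was 0.876 without the 2 farthest embryos, 0.954 around group means and 0.913 around slide means.

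Nr5a1 correlated with Wt1 at r = 0.892 and rho = 0.818 (permutation p = 0.00011 and 0.0018, adjusted 0.00077 and 0.012), which came to 0.708 without control female 3 and the other farthest embryo, 0.918 around group means and 0.851 around slide means. With Gata4 it reached r = 0.831 and rho = 0.727 (permutation p = 0.00075 and 0.0099, adjusted 0.0026 and 0.03), and 0.661 without the 2 farthest. Tcf21, whose protein represses Nr5a1 in the mouse gonad, gave r = -0.195 and rho = -0.112 with Nr5a1 (permutation p = 0.54 and 0.73, adjusted 0.68 and 0.77), and 0.005 around group means. Gata4 and its cofactor Zfpm2 gave r = 0.437 and rho = 0.524 (permutation p = 0.15 and 0.082, adjusted 0.27 and 0.14), and 0.628 around group means. Zfpm2 and Tcf21, the 2 members with the largest excess in males, gave r = 0.703 and rho = 0.671 (permutation p = 0.012 and 0.021, adjusted 0.022 and 0.054), 0.502 around group means and 0.577 around slide means.

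**Figure D4:**
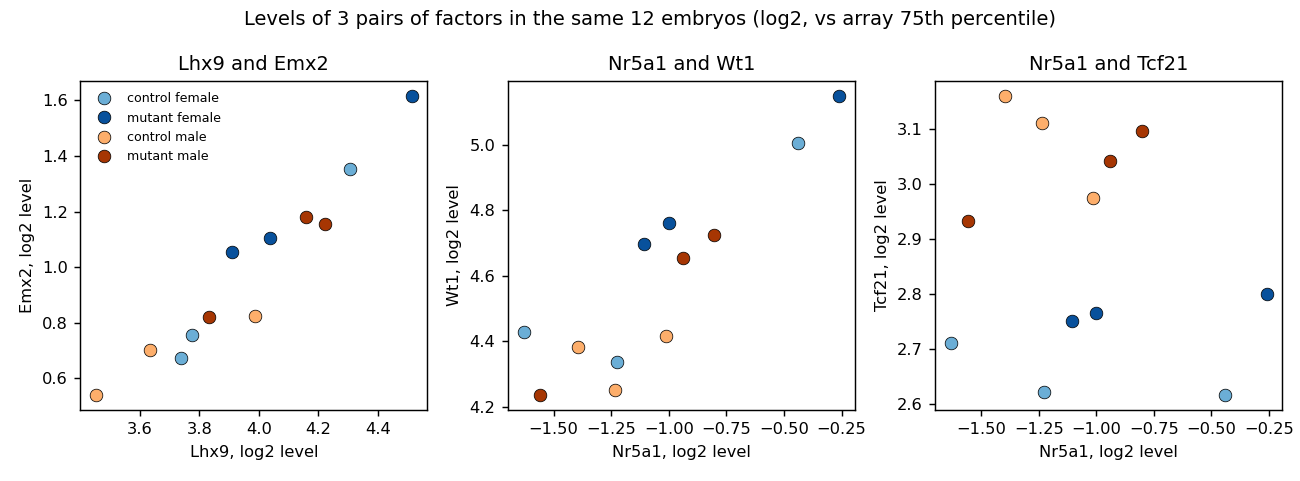
Log2 levels of 2 factors against each other in the 12 embryos, 1 point per embryo coloured by group, for Lhx9 and Emx2, Nr5a1 and Wt1, and Nr5a1 and Tcf21 (both axes relative to the array's 75th percentile). Lhx9 and Emx2, each read by its brighter probe, lie near a line (r = 0.962), as do Nr5a1 and Wt1 (r = 0.892). Tcf21 separates males from females and gave r = -0.195 with Nr5a1.

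Covariation of this kind was common on these arrays. A correlation over 0.8 was found for 9.93% of the 19120 features with Nr5a1, 13.2% with Wt1, 12.4% with Emx2, 4.34% with Lhx9, 2.35% with Gata4, 0.533% with Tcf21 and 0.11% with Zfpm2. The brightness of the arrays, as the log2 of the 75th percentile, correlated with the levels at 0.674 for Nr5a1, 0.733 for Wt1, 0.652 for Emx2, 0.48 for Lhx9, 0.299 for Gata4, -0.538 for Zfpm2 and -0.714 for Tcf21 over the 12 arrays, given as a description. With brightness taken out, Lhx9 and Emx2 correlated at 0.976, Nr5a1 and Wt1 at 0.791, Nr5a1 and Zfpm2 at 0.887 where the plain value was 0.190, and Nr5a1 and Tcf21 at 0.552 where the plain value was -0.195.

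The 3 genes most like each member over the 12 arrays were found by the highest Pearson r among named features. For Nr5a1 they were Parvb (0.983), Reep2 (0.96) and Polg (0.958). For Wt1 they included Dsp (0.986) and Hs6st1 (0.985), and for Gata4 they were Flad1 (0.955), Mrpl38 (0.951) and Isyna1 (0.947). Lhx9 was nearest to Emx2 (0.962), Ildr2 (0.961) and Tspan15 (0.948), and Emx2 to Hk1 (0.984), Mfn1 (0.977) and Arhgap17 (0.975). Zfpm2 was nearest to Qk (0.936), Fkbp5 (0.91) and Lgr5 (0.909). Tcf21 was nearest to N4bp2 (0.936) and to Eif2s3y (0.926) and Uty (0.915), both of which lie on the Y chromosome of the mouse. Members were among each other's nearest only in the case of Emx2 for Lhx9.

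Other genes tied to the genital ridge, not all of them needed for it to form, were read beside the members. Of 12 such genes, all measured, 9 read higher in mutant males, 11 in mutant females and 10 in the averaged effect, and 0 of 12 passed in any of the 3. Their median averaged change was 0.18, beside 0.21 for the members and -0.05 for all features. The 2 with the smallest p were Cbx2, a Polycomb protein needed for gonad growth and Sry expression, at 0.52 ± 0.17 (SE, limma, adjusted p = 0.166), and Igf1r, a receptor of insulin-like growth factors, at 0.36 ± 0.13 (adjusted p = 0.177). Both passed without control female 3, Cbx2 at 0.64 (adjusted p = 0.0287) and Igf1r at 0.48 (adjusted p = 0.0241), and with array weights (adjusted p = 0.00366 and 0.00341), the settings in which 25.2% of all features and 10009 of them passed.

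Of the 7 family relatives of the members, 6 were measured and Msc was not. All 6 measured read higher in the averaged effect and 0 passed, with a median of 0.55. Gata5 had the smallest p, at 0.73 ± 0.17 (SE, limma, adjusted p = 0.073), but its probe was well above background in only 2 of 3 control males, and with another background correction (normexp) its change was -0.04. Zfpm1, the close relative of Zfpm2, was at 0.66 ± 0.17 (adjusted p = 0.106). Without control female 3 both passed, Gata5 at 0.80 (adjusted p = 0.0259) and Zfpm1 at 0.76 (adjusted p = 0.0253), as they did with array weights (adjusted p = 0.00295 and 0.00297), and Gata5 also passed without mutant male 2 (0.84, adjusted p = 0.0308).

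Of 11 genes known as targets of these factors, 10 were measured and Amh was not well above background. In the averaged effect 3 of the 10 read higher and 7 lower, with a median of -0.22, and Star and Ptgds passed the test, both lower. Sry also passed, but it was well above background in the 3 control males and in no other embryo, and female embryos lack the gene, so its averaged value rests on background and no fold is given. That call was lost under normexp (adjusted p = 0.103) and under the slide block (adjusted p = 0.12). Star, which carries cholesterol into mitochondria and is a target of Nr5a1, fell by 0.60 ± 0.11 (SE, limma, adjusted p = 0.0204). It read -0.66, -0.32 and -0.23 in control females, -1.19, -1.08 and -1.15 in mutant females, -0.15, 0.28 and 0.08 in control males, with -0.54, -0.24 and -0.40 in mutant males. Mutants and controls did not overlap in either sex for Star.

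Ptgds, a prostaglandin synthase of the testis pathway, fell by 1.46 ± 0.29 (SE, limma, adjusted p = 0.0417). In males alone Sry, the testis-determining gene that Gata4, Zfpm2 and Wt1 help to switch on (adjusted p = 0.00231), and Sox9, its main target, passed, and Sox9 fell by 1.05 ± 0.18 (adjusted p = 0.0361). Where the averaged call of Star was lost, its change was -0.76 with the slide as a block (adjusted p = 0.0842), -0.53 with the mean of its probes (adjusted p = 0.0626), -0.60 with no filter on dim probes (adjusted p = 0.0539) and -0.60 to -0.55 without any 1 of control female 2, control male 2, mutant females 1 and 3 and mutant males 1 and 3 (adjusted p from 0.0557 to 0.0703). Where that of Ptgds was lost, its change was -1.34 when brightness was fitted as a covariate (adjusted p = 0.198), -1.46 with no filter (adjusted p = 0.0764), -1.40 with quantile normalization (adjusted p = 0.0501) and -1.58 to -1.31 without any 1 of 9 arrays (adjusted p from 0.0545 to 0.115), the exceptions being control female 3 and mutant males 1 and 2.

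Markers of neighbouring cell types were read in the same embryos. For 8 mesonephric epithelium genes the summed level ranged from 0.997 to 1.12 among control males and from 1.84 to 2.69 among mutant males, without overlap. Among control females it ranged from 1.6 to 1.76, inside the range of 1.2 to 2.66 of the mutant females. For 4 adrenal primordium genes, from another tissue that uses Nr5a1 and Star, the sum ranged from 10.8 to 11.4 among control males and from 8.33 to 10.6 among mutant males. The females ranged from 9.33 to 11.3 as controls and from 7.44 to 8.55 as mutants, so the adrenal sums did not overlap in either sex. Fdx1 was by far the brightest of the 4, so the sums mostly follow it. In males Mc2r (-1.05) and Fdx1 (-0.24) did not overlap, while Mrap (-0.14) and Akr1b7 (-0.49) overlapped. In females Mrap (-0.91), Akr1b7 (-0.97) and Fdx1 (-0.28) did not overlap, while Mc2r (-0.32) overlapped. All 4 read lower in both sexes, and 0 of 4 passed in either. Groups did not overlap for 20.3% of all features in males and 12.7% in females. Of 5 coelomic epithelium genes Krt18 was by far the brightest. Their sum ranged from 30.5 to 37.4 among control males and from 35.3 to 42.2 among mutant males. In females it was 34 to 37.9 in controls and 29.3 to 36.7 in mutants. For 7 mesenchyme genes the sum was 74.7 to 99 in control males and 98 to 121 in mutant males. Control females had 92.1 to 114 and mutant females 111 to 127, so these ranges overlapped in both sexes. In each sex 5 of the 7 mesenchyme genes read higher in mutants, with a median change of 0.31, and 0 passed. Of 6 germ cell genes 5 were measured, and Dazl was not well above background. Their sum ranged from 0.918 to 1.03 among control males and from 1.06 to 1.45 among mutant males, without overlap. It ranged from 0.567 to 1.15 among control females and 0.844 to 1.01 among mutant females. Dnd1 was the brightest of the 5. In males the genes did not move as 1: Ddx4 (1.02) and Dnd1 (0.22) read higher in mutants without overlap, and Nanos3 (-0.48) read lower without overlap. A lack of overlap held for 20.3% of all features in males. The Nanos3 probe was well above background in only 2 of 3 control males and 2 of 3 mutant males. Pou5f1 (0.16) and Dppa3 (0.09) overlapped, and 0 of 5 passed. The part of these cells in the levels of the 7 factors was not tested. The summed level of the 7 factors themselves was 45.0 to 65.0 in control females and 53.1 to 73.1 in mutant females. In males it was 44.6 to 52.5 in controls and 46.2 to 60.1 in mutants, so the ranges overlapped in both sexes. Wt1 and Lhx9 weighed most in this sum, at mean levels of 24.1 and 15.4 in control females, beside 0.467 for Nr5a1 and 0.230 for Gata4. The overlap of the sums thus says little about Nr5a1 and Gata4, whose own levels are given above.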

How the data were processed

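RNA of CD271-sorted gonadal somatic cells from 12 single embryos was amplified, labelled with Cy3 and hybridised, 1 embryo per array, per the labels' protocols. Scans were read with Agilent Feature Extraction (submitters' processing notes), at version 10.5.1.1 according to the headers. Per the file headers, the deposited intensity used here is its processed signal, with background already subtracted, and the local background and the raw median are further intensity columns.

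From these intensities, outlier spots were dropped, spots of a probe were averaged, and log2 values were taken minus the array's 75th percentile. Accessions were matched to RefSeq names, which gave 27479 of 41174 probes a symbol. The brightest tested probe stood for a gene, and a test required signal well above background throughout 1 group or more, which left 19180 features. limma 3.58.1 in R 4.3.3 fitted the 4 group means over all 12 arrays, with Benjamini-Hochberg adjustment and a call at 0.05.

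Groups came from the labels, which do not name litters. Alternatives were normexp, quantile normalization, other filters and probe rules, slide or replicate number as a block, array brightness, array weights, and each array left out. The members and lists were chosen with earlier results of these data known, and so were the sex difference averaged over genotypes and the substitute for aberrant local backgrounds in normexp. Named genes were the members, Kdm3a, each list's genes past the threshold with the 2 of smallest p, and the 3 most alike features, of which 1 is not reported here.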

Additional observations from a re-analysis of the deposited data

Results flagged for a closer look

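Sox9, a target of Sry and Nr5a1, was looked at again because its values lay on opposite sides of the controls in the 2 sexes: all 3 mutant males read below the mean of the control males and all 3 mutant females above the mean of the control females. Control males 1 to 3 read 0.25, 0.60 and 0.36, and mutant males 1 to 3 read -0.68, -1.03 and -0.23. Control females 1 to 3 read -0.80, -1.04 and -1.05, and mutant females 1 to 3 read -0.51, -0.54 and -0.62. The difference of the mutant effects, males minus females, was -1.46 on the log2 scale with an adjusted p of 0.823 in limma, so the test of the difference itself did not pass over 19180 features.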

How the results depend on the processing

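The count of members past the threshold stayed at 0 of 7 in all 6 comparisons under normexp, quantile normalization, both filters, the mean of probes, the slide block, the replicate block and brightness as a covariate, and in the 4 comparisons of 2 groups also when only those groups were fitted. It rose with array weights, to 3 in the averaged effect, 1 in mutant females against control females (Wt1) and 1 between control males and control females (Tcf21), and leaving out 1 array gave 0 to 1 in the averaged effect. Cbx2, Igf1r, Gata5 and Zfpm1 gained an averaged call with array weights and without control female 3, and Gata5 without mutant male 2. The causes of the changes below were not tested. With 3 arrays per group, the 95% intervals did not exclude changes of up to 1.81-fold in males and 2.02-fold in females. The slide block takes each mutant effect from 1 slide, where 1 group is 1 embryo.

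Counts of features past the threshold moved more. With the slide as a block they were 52 in males, 13 in females, 58 averaged, 13 between control sexes, 7 between mutant sexes and 8 for the difference of the effects, where the unblocked counts were 90, 68, 214, 34, 25 and 0. With brightness as a covariate they were 54 in males, 42 in females, 116 averaged, 10 between mutant sexes and 1 for the difference. With array weights they were 2622, 5616, 10009, 246 and 90 in the first 5. With no filter on dim probes males had 35 and females 43. With only the groups compared, males had 26, females 34, control sexes 10 and mutant sexes 10. With only probes well above background on all 12 arrays, mutant sexes had 11. Averaged over both genotypes, the sex difference had 112. Replicate numbers did not pair the embryos: same-numbered deviations correlated at -0.53 to 0.43, and 6 of 18 such pairs were over 0.1. With the replicate block the count between mutant sexes was 16, and no call of a member changed. Leaving out 1 array gave 26 to 52 features in males, 31 to 133 in females, 126 to 4827 averaged, 19 to 40 between control sexes and 11 to 17 between mutant sexes, and the highest counts in females and averaged came without control female 3.

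Signs of small values turned as follows. With the slide as a block, the female effect was -0.35 for Nr5a1, -0.14 for Wt1, -0.23 for Gata4, -0.18 for Zfpm2, -0.15 for Lhx9 and -0.0934 for Emx2, the male effect of Tcf21 was 0.0141, the sex difference of Gata4 in controls was -0.19, the sex difference in mutants was 0.53 for Nr5a1, 0.20 for Wt1, 0.39 for Lhx9 and 0.38 for Emx2, and the difference of the effects was 0.76 for Nr5a1 and 0.51 for Wt1. With brightness as a covariate, Nr5a1 gave -0.13 in males, -0.0490 in females, -0.0905 averaged, 0.45 between control sexes and 0.37 between mutant sexes, Gata4 gave -0.0374 in females and -0.0009 averaged, and the sex difference in mutants was 0.0536 for Emx2 and 0.0517 for Lhx9. With normexp, Gata4 in females gave -0.0030, Tcf21 in males 0.0081, Emx2 in the difference of the effects -0.0375 and Gata5 averaged -0.0383. With quantile normalization the difference of the effects was -0.0134 for Gata4. With array weights, Nr5a1 gave 0.0478 between control sexes and Lhx9 0.0967 between mutant sexes, which was 0.0499 with the mean of its probes. Leaving out 1 array turned some signs. The difference of the effects ran from -0.52 to 0.0708 for Nr5a1, -0.30 to 0.0628 for Wt1, -0.16 to 0.25 for Gata4, -0.0187 to 0.34 for Lhx9 and -0.18 to 0.21 for Emx2. The female effect ran from -0.10 to 0.30 for Gata4 and -0.0808 to 0.16 for Zfpm2, and the male effect of Nr5a1 from -0.0343 to 0.34. The sex difference in controls ran from -0.38 to 0.21 for Nr5a1 and -0.0697 to 0.20 for Gata4, and in mutants from -0.12 to 0.27 for Gata4 and -0.20 to 0.10 for Lhx9.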
